A study of Homo sapiens with 12 samples.

Results

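The 41 genes described here encode enzymes of mucin-type O-glycans, enzymes known from N-glycans or glycolipids (among them FUT8, ST6GAL1 and B4GALT5) and a few mucins. They comprise 18 polypeptide N-acetylgalactosaminyltransferases (the GALNT family), 10 enzymes and chaperones that form or extend the glycan core, 6 sialyltransferases, 3 fucosyltransferases, 3 mucins and A4GALT, a galactosyltransferase of glycolipids. They were matched by gene symbol to the 63241 annotated genes of 12 RNA-seq libraries, and each symbol had 1 gene. In 33 of the 41 the counts were high enough for a test of differences.

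The libraries came from MDA-PCa-2b, an androgen-responsive human prostate adenocarcinoma line derived from a bone metastasis. They carry 4 labels with 3 libraries each. KDR is a knockdown 2 culture with a rescue, KD2 is knockdown 2 of DHODH, KD1 is knockdown 1 of DHODH, and NT is the label set beside the knockdowns. DHODH is the mitochondrial enzyme of pyrimidine synthesis, a pathway that feeds the UDP- and CMP-bound sugars used by glycosyltransferases. The labels do not say what NT abbreviates, which constructs were used, whether a label stands for 1 clone or a pool, or whether the 3 libraries of a label came from separate cultures, so the p-values below measure the spread between these libraries, which may be technical. The culture description also names the sister line MDA-PCa-2a, while the cell line field names MDA-PCa-2b for every library.

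Mucin-type O-glycosylation begins in the Golgi when a GALNT enzyme moves N-acetylgalactosamine (GalNAc) from UDP-GalNAc onto a serine or threonine. C1GALT1, with its chaperone C1GALT1C1, adds galactose to give core 1, GCNT1 branches core 1 to core 2, and B3GNT6 turns the same GalNAc into core 3, a structure best known from the colon. Sialyltransferases such as ST3GAL1 cap these chains, and ST3GAL1 and GCNT1 compete for core 1. Altered O-glycans, including short sialylated ones, are a familiar feature of carcinomas of the prostate and other glands.

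Total counts ran from 23786288 to 38240369 per library. DHODH mRNA averaged 18.6 ± 0.92 CPM (counts scaled to 1000000 reads by library size and TMM, a composition correction) in KDR, 13.1 ± 1.73 in KD2, 10.4 ± 0.67 in KD1 and 10.5 ± 2.51 in NT (SD, n = 3 each). Against NT the log2 difference was 0.31 ± 0.14 in KD2 (SE, edgeR adjusted p = 0.0968) and -0.03 ± 0.14 in KD1 (adjusted p = 0.974), so the targeted transcript was not detectably lower in either knockdown label. For that reason KDR, KD2, KD1 and NT are used throughout as names of labelled libraries, and no direction below is a statement about DHODH level. KDR held more DHODH mRNA than KD2, by 0.51 ± 0.14 on the log2 scale (SE, edgeR adjusted p = 0.00639). Beyond Poisson counting error, counts varied by a coefficient of 5.52% in KDR, 7.16% in KD2, 6.6% in KD1 and 15.7% in NT; NT replicate 2 stood apart, and without it the NT value was 8.57%. The 8 luminal prostate markers were all expressed, and their summed level was 15610 to 16010 CPM in KDR, 10640 to 10950 in KD2, 15760 to 16130 in KD1 and 15680 to 18700 in NT. KD2 was thus lower than every other library in these markers, which include KLK3, TMPRSS2 and FOLH1, and the part this plays in the differences below was not tested. Summed immune markers stayed at or below 0.595 CPM and endothelial markers at or below 0.707 CPM in every library, with CD3E and CDH5 at 0 in all of them. Other marker lists were low but not level: 3 basal markers summed to 2.52 to 3.36 CPM in KDR, 3.01 to 3.54 in KD2, 0.814 to 1.30 in KD1 and 1.52 to 2.51 in NT, and 3 neuroendocrine markers to 1.32 to 1.90 in KDR, 3.54 to 3.83 in KD2, 4.10 to 4.37 in KD1 and 3.70 to 4.57 in NT. The 5 fibroblast markers summed to 2.52 to 4.58 CPM in KDR, 1.67 to 2.36 in KD2, 3.15 to 4.68 in KD1 and 3.24 to 4.92 in NT. KRT14 made up nearly all of the basal sum and COL1A1 most of the fibroblast sum. Each was the only gene of its list high enough to test, so these sums describe mainly single genes. COL3A1, another fibroblast marker, went the other way from COL1A1, at 0.456 CPM in KD2 and 0.160 in NT. The part of these lists in the differences below was not tested.

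The set was dominated by a few transcripts. Summed over all 41 genes, the level was 2409 ± 20.2 CPM in KDR, 3426 ± 19.1 in KD2, 3393 ± 33.8 in KD1 and 3415 ± 18.6 in NT. The KDR libraries lay below the other 9 without overlap. ST3GAL1 alone made up 25.4 ± 0.43% of that sum in KDR, 41.6 ± 0.86% in KD2, 34.9 ± 0.26% in KD1 and 35.9 ± 2.25% in NT. Without ST3GAL1 the sum was 1798 ± 11.8 CPM in KDR, 2002 ± 40.8 in KD2, 2210 ± 24.0 in KD1 and 2190 ± 84.9 in NT. The near-equal totals of KD2, KD1 and NT therefore held a higher ST3GAL1 and a lower remainder in KD2. In bulk libraries such as these, fewer cells that express a gene and less RNA of it per cell cannot be told apart.

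**Figure D1:**
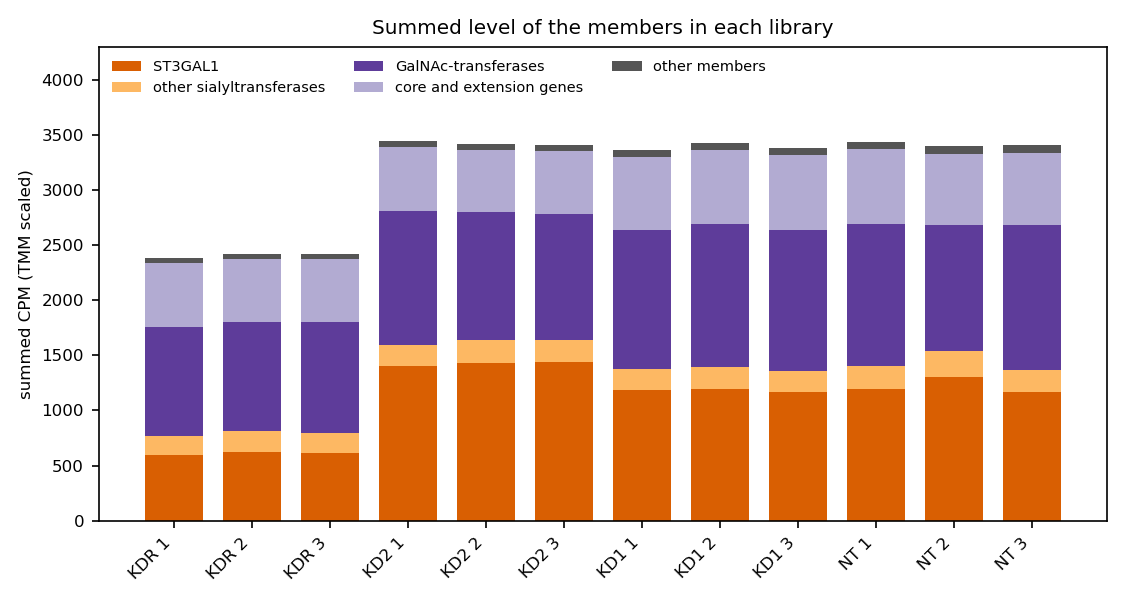
Summed level of the 41 genes in each of the 12 libraries, in TMM-scaled CPM on a linear axis, with stacked bars split by role and one bar per library. The 3 KDR bars end between 2386 and 2421 CPM and the other 9 between 3367 and 3448, and most of the gap is the ST3GAL1 segment.

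Each comparison was fitted over all 19373 tested genes with edgeR's quasi-likelihood test, and a gene counted as changed at a Benjamini-Hochberg adjusted p under 0.05. Against NT, 18 of 33 tested members differed in KD2, 8 higher and 10 lower, while 35.9% of all tested genes did (17.8% higher and 18.2% lower). Leaving aside GALNT17 and B3GNT6, whose behaviour in KD2 was used to choose this gene set, the count was 16 of 31, or 51.6%, with 7 higher and 9 lower, and 5 of the 31 also changed by at least 2-fold, as did 9.27% of all genes. The median log2 fold change over the 33 was -0.18, against -0.01 for all genes. Changes in KD2 were thus spread over the whole transcriptome, and the members' count stands against that background.

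Against NT, 0 of 33 members differed in KD1, where the background was 0.0% of genes. C1GALT1 alone had an unadjusted p under 0.05 in edgeR among the members, and DESeq2 also called 0 members; over all genes edgeR and DESeq2 each called 0, although 1185 genes (6.12%) had an unadjusted p under 0.05 in edgeR. For 27 of the 33 the 95% interval of the KD1 difference lay within 2-fold in either direction, and the 6 others were GALNT14, GALNT15, B3GNT6, ST6GALNAC2, FUT2 and MUC1, each averaging at most 1.52 CPM in NT. A direct test of KD2 against KD1 found 18 members different, 8 higher and 10 lower, with a background of 35.5% (17.9% higher and 17.5% lower). Without GALNT17 and B3GNT6 it was 16 of 31, and 5 of the 31 changed by at least 2-fold, as did 8.94% of all genes.

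Against KD2, 19 of 33 members differed in KDR, 7 higher and 12 lower, with a background of 32.4% (15.3% higher and 17.1% lower). Without GALNT17 and B3GNT6 it was 17 of 31, 6 higher and 11 lower, and 8 of the 31 changed by at least 2-fold, as did 8.69% of all genes. Against NT, 21 of 33 differed in KDR, 3 higher and 18 lower, with a background of 27.5% (13.0% higher and 14.5% lower). Without the same pair it was 19 of 31, 2 higher and 17 lower, and 4 of the 31 changed by at least 2-fold, as did 6.45% of all genes. The median log2 fold change of the members in KDR against NT was -0.38, and that of all genes was 0.01. The 3 members above NT in KDR were B3GNT6, ST6GALNAC1 and MUC1. The comparisons share libraries, so their values are set side by side and not counted as separate evidence. Leaving out NT replicate 2, the counts were 19 for KD2 against NT, 22 for KDR against KD2 and 22 for KDR against NT.

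**Figure D2:**
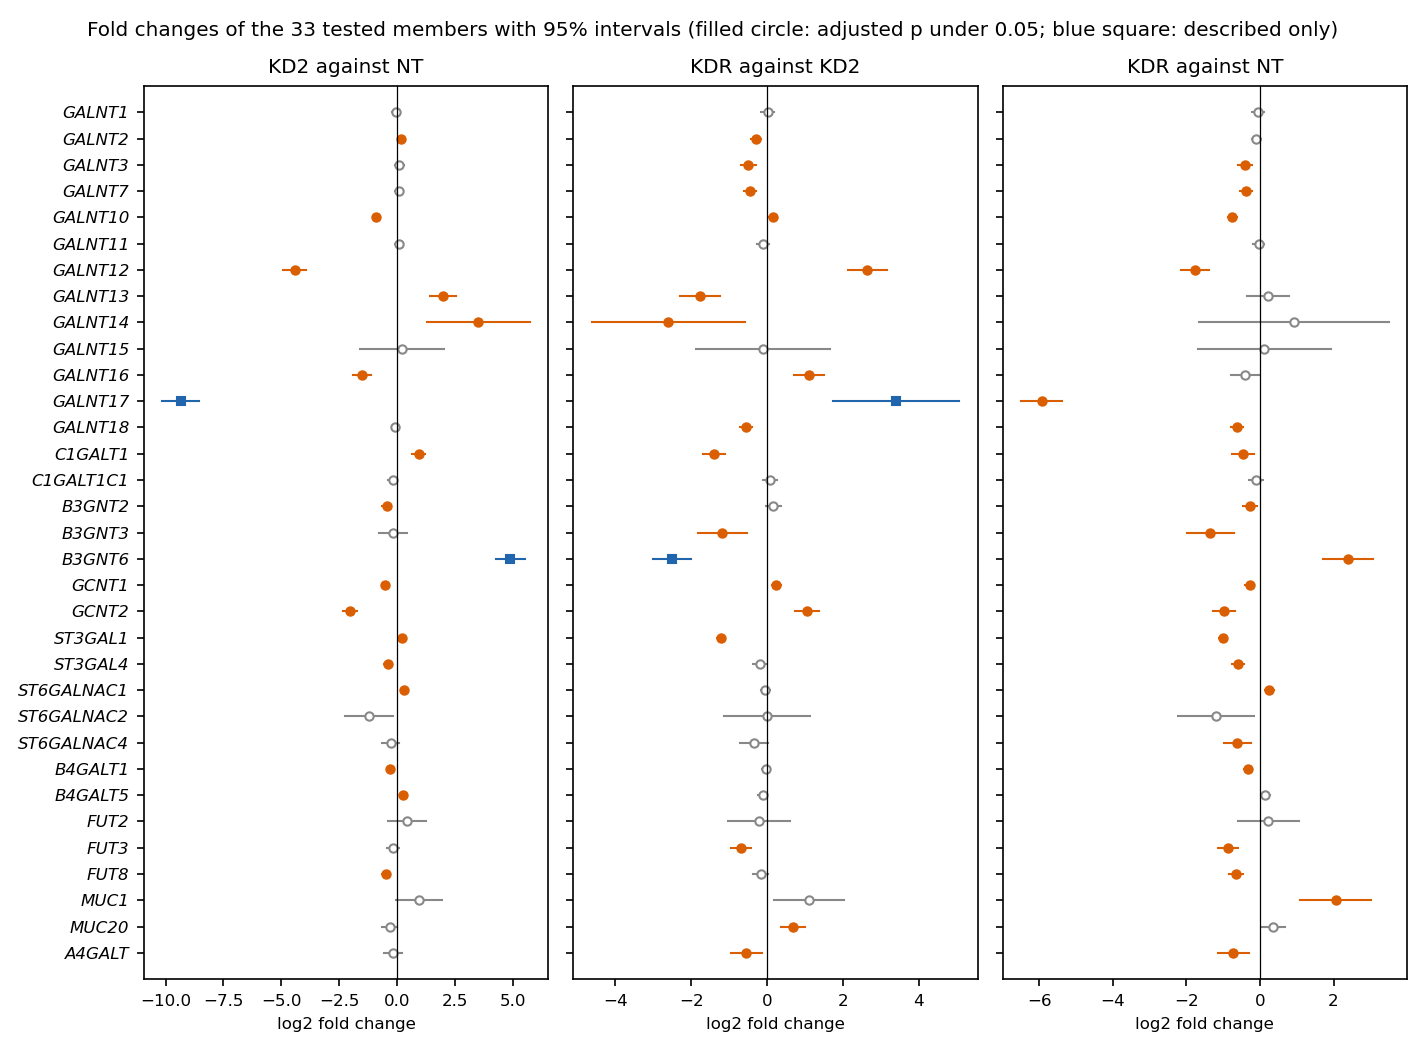
Log2 fold changes of the 33 tested members with 95% intervals, in KD2 against NT, KDR against KD2 and KDR against NT, each panel with its own linear axis. Filled orange circles passed an adjusted p under 0.05, open grey circles did not, and blue squares mark GALNT17 and B3GNT6 where KD2 is compared, since they were chosen on that contrast. In the panel of KDR against NT, 18 of the 21 filled points lie left of 0. The 21 include GALNT17 and B3GNT6, whose choice used the same NT libraries.

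Among the initiating enzymes, the 2 transcripts that make up most of the family differed by less than 1.5-fold between labels and several scarce ones differed far more. Per kilobase of exon, GALNT7 supplied 30.0 ± 0.57% of the summed GALNT level in KDR, 34.5 ± 0.41% in KD2, 32.0 ± 0.36% in KD1 and 30.9 ± 2.47% in NT. GALNT1 supplied 31.7 ± 0.74% in KDR, 26.2 ± 0.62% in KD2, 27.9 ± 0.96% in KD1 and 26.0 ± 2.14% in NT. GALNT1, a broadly expressed isoenzyme, passed the test in none of the 5 comparisons, and its fold change of KD2 against NT was -0.06 ± 0.08 on the log2 scale (SE). GALNT7, which acts mainly on peptides that already carry GalNAc, had 316, 328 and 331 CPM in KDR, 468, 442 and 428 in KD2, 439, 456 and 441 in KD1, and 445, 348 and 472 in NT. Its KDR libraries lay below all 9 others, and it fell in KDR by 0.38 ± 0.07 against NT on the log2 scale (edgeR adjusted p = 0.000534).

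**Figure D3:**
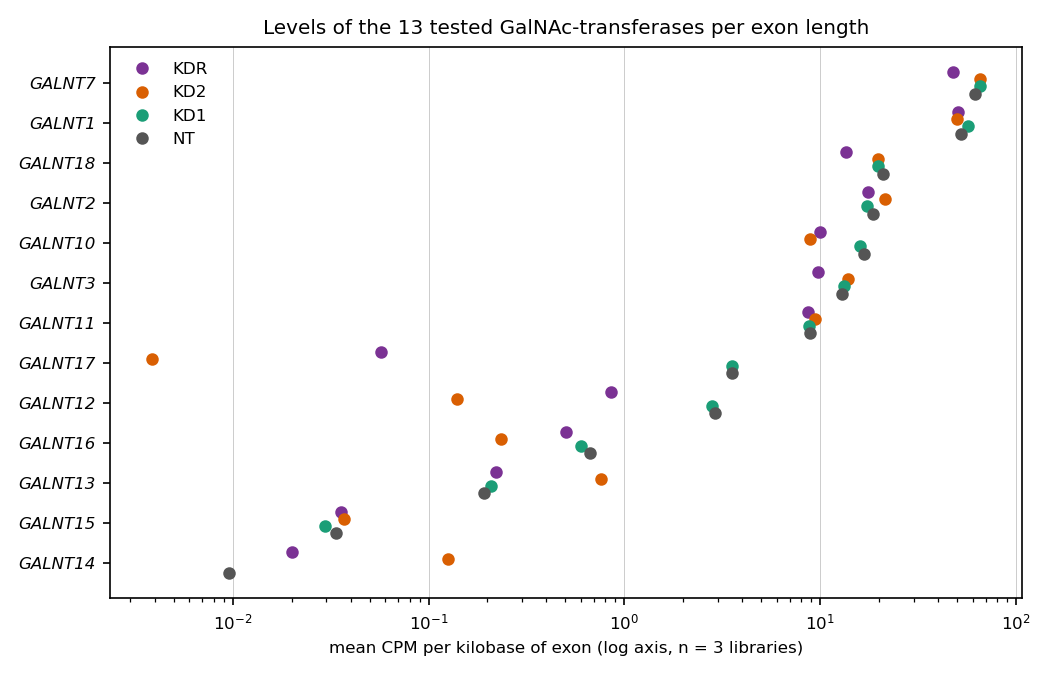
Mean level of the 13 tested GALNT genes in CPM per kilobase of exon on a log axis, with 1 point per label (n = 3 libraries); the KD1 point of GALNT14 is not drawn because its level there is 0. GALNT7 and GALNT1 stand at 47.7 to 65.5 in every label, and GALNT17 and GALNT12 spread most widely between labels.

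GALNT17, which lies on GRCh38 chromosome 7 from 71132144 to 71713600 on the plus strand, had almost no reads in KD2. The libraries held 14, 2 and 10 reads in KDR, 2, 0 and 0 in KD2, 465, 461 and 620 in KD1, and 507, 581 and 451 in NT. KD1 and NT overlapped fully, and all 3 KD2 libraries lay far below them. Scaled by depth the summed counts were 763-fold lower in KD2 than in NT, with a 95% counting interval of 211 to 6310, because KD2 held only 2 reads, both in replicate 1. KDR held 26 reads in all, and its depth-scaled sum was 12.4-fold that of KD2 (counting interval 3.09 to 107), given without a test because GALNT17 was chosen for its level in KD2. The depth-scaled sum of KDR was 61.8-fold lower than that of NT (counting interval 42.0 to 94.9), at means of 0.28 ± 0.19 CPM in KDR and 17.4 ± 1.74 in NT. This too is given without a test, since the same NT libraries were in the comparison that chose GALNT17. The mean of KD2 was 0.019 ± 0.033 CPM and that of KD1 17.3 ± 1.67. The counting intervals cover counting error only.

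GALNT12, an isoenzyme with a strong presence in the digestive tract, followed the same order of labels over a narrower range. Per kilobase of exon its mean level was 0.85 in KDR, 0.14 in KD2, 2.80 in KD1 and 2.90 in NT, so it was above GALNT17 in KDR (0.057) and KD2 (0.0039) and below it in KD1 (3.53) and NT (3.55). GALNT12 had 2.66, 2.39 and 3.04 CPM in KDR, 0.341, 0.312 and 0.668 in KD2, 8.10, 9.73 and 8.75 in KD1, and 9.07, 8.53 and 9.98 in NT. The KDR values lay between KD2 and NT and overlapped neither. GALNT12 fell by 4.42 ± 0.24 in KD2 against NT on the log2 scale (edgeR adjusted p = 8.49e-13). In KDR it was 2.65 ± 0.25 higher than in KD2 (adjusted p = 2.26e-08) and its log2 fold change against NT was -1.77 ± 0.18 (adjusted p = 1.25e-07). Of its exon length, 20.9% is shared with another annotated gene, where reads were not counted.

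GALNT16, a close relative of GALNT2, had 5.38, 6.00 and 6.00 CPM in KDR, 2.95, 2.74 and 2.34 in KD2, 5.27, 9.02 and 6.35 in KD1, and 6.80, 8.50 and 7.74 in NT. KD2 lay below all other libraries. The log2 fold change was -1.51 ± 0.19 in KD2 against NT (edgeR adjusted p = 1.32e-06) and 1.10 ± 0.19 in KDR against KD2 (adjusted p = 0.000106). In KDR against NT it was -0.41 ± 0.18 and did not pass (adjusted p = 0.102).

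GALNT10, another isoenzyme that prefers peptides already bearing GalNAc, was among the better expressed members that fell. It had 106, 104 and 103 CPM in KDR, 93.6, 93.2 and 93.7 in KD2, 161, 172 and 167 in KD1, and 178, 183 and 164 in NT. KDR and KD2 both lay below every KD1 and NT library. The log2 fold change was -0.90 ± 0.06 in KD2 against NT (edgeR adjusted p = 1.98e-11) and -0.75 ± 0.06 in KDR against NT (adjusted p = 9.93e-10). The small difference of 0.16 ± 0.06 in KDR against KD2 passed at an adjusted p of 0.0425, but lost the call when any 1 of the KDR, KD2 or KD1 libraries was left out, with adjusted p between 0.0585 and 0.143. With all libraries, the call was also lost in edgeR without a filter on low counts (adjusted p = 0.14) and with replicate number as a block (0.0528).

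Other initiating enzymes were higher in KD2. GALNT13, a close relative of GALNT1 known from neural tissue, had 1.78, 1.32 and 1.32 CPM in KDR, 5.39, 4.65 and 5.14 in KD2, 1.27, 1.37 and 1.51 in KD1, and 1.37, 0.826 and 1.64 in NT. Its KD2 libraries lay above all others, by 1.99 ± 0.26 against NT on the log2 scale (edgeR adjusted p = 2.13e-06). In KDR against KD2 it fell by 1.77 ± 0.26 (adjusted p = 1.03e-05), and in KDR against NT the difference of 0.22 ± 0.27 did not pass (adjusted p = 0.61). GALNT14, of the same subfamily as GALNT2 and GALNT16, had 8 reads in KDR, 48 in KD2, 0 in KD1 and 4 in NT, summed over 3 libraries. Against KD1 it was at least 16.5-fold higher in KD2, taking a floor of 3 reads over the group for KD1. Its KD2 rise against NT (adjusted p = 0.013) was lost without NT replicate 3 (adjusted p = 0.0694) or KD2 replicate 2 (adjusted p = 0.0576), and all 4 NT reads were in NT replicate 1. GALNT2, a broadly acting isoenzyme, was 0.19 ± 0.06 higher in KD2 than in NT (adjusted p = 0.0177), which did not hold without NT replicate 1 (adjusted p = 0.0725), KD2 replicate 1 (0.0781) or KD2 replicate 2 (0.0546). Nor did it hold when only the KD2 and NT libraries were fitted (edgeR adjusted p = 0.067).

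In KDR against NT, 6 of 13 tested GALNT genes fell, and 0 rose, while 14.5% of all tested genes fell and 13.0% rose. The 6 were GALNT3, GALNT7, GALNT10, GALNT12, GALNT17 and GALNT18. GALNT17 was chosen for its fall in KD2 against the same NT libraries, so its place among the 6 is not a result. GALNT3, known for glycosylating the phosphate hormone FGF23, averaged 44.9 ± 4.34 CPM in KDR, 63.3 ± 3.67 in KD2, 60.8 ± 1.59 in KD1 and 59.5 ± 9.59 in NT, with a log2 fold change of -0.41 ± 0.10 in KDR against NT (edgeR adjusted p = 0.00267). GALNT18 averaged 48.9 ± 1.92 CPM in KDR, 71.8 ± 1.59 in KD2, 71.4 ± 5.12 in KD1 and 75.6 ± 6.95 in NT, with a log2 fold change of -0.63 ± 0.08 in KDR against NT (adjusted p = 1.05e-06). Both were therefore lower in KDR while their change in KD2 against NT did not pass. GALNT11 and GALNT15 passed in no comparison. The summed GALNT level per kilobase was 159 ± 1.67 in KDR, 190 ± 6.59 in KD2, 205 ± 2.75 in KD1 and 199 ± 15.8 in NT.

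GALNT4, GALNT5, GALNT6, GALNT8 and GALNT9 were too low to test, with 0 to 7 reads per library. GALNT4 shares 94.1% of its exon length with the read-through gene POC1B-GALNT4, so its reads were largely not countable here. GALNT8 also shares exon length with another annotated gene.

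The promoters of 4 members that changed in KD2 are shown because 3 of them were lower there together (GALNT12, GALNT16 and GALNT17) while C1GALT1 was higher. Of the 10 members plotted by library, only these 4 and B3GNT3 have exactly 1 promoter window, and B3GNT3 did not pass in KD2 against NT. Members outside the 10 with 1 window are not shown, among them GALNT10, which was lower in KD2. Each sequence shown is the RefSeq window from 250 bases before to 50 bases after the transcript start on GRCh38.p14. It is read 5′ to 3′, with CG dinucleotides in capitals. All 4 lie on the plus strand: GALNT12 at chr9:98807420-98807719, GALNT16 at chr14:69259908-69260207, GALNT17 at chr7:71131894-71132193 and C1GALT1 at chr7:7182294-7182593.
GALNT12: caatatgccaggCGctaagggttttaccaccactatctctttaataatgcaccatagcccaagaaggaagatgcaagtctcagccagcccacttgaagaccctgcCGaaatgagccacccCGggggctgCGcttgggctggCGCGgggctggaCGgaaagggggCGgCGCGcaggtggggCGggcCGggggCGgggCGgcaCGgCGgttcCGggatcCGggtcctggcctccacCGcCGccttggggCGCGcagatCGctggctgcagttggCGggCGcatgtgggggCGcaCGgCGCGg
GALNT16: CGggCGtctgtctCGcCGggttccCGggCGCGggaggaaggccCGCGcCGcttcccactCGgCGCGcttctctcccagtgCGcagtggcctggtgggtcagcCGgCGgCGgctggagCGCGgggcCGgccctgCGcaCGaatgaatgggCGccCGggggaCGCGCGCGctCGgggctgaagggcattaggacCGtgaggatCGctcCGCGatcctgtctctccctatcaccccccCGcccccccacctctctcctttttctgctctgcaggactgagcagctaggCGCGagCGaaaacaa
GALNT17: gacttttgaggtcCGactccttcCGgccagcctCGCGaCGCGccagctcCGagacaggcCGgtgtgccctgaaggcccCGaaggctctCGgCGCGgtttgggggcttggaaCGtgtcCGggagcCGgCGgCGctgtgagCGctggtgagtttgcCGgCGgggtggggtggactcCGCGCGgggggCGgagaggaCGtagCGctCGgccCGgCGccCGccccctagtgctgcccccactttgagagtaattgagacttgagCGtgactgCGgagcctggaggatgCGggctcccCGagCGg
C1GALT1: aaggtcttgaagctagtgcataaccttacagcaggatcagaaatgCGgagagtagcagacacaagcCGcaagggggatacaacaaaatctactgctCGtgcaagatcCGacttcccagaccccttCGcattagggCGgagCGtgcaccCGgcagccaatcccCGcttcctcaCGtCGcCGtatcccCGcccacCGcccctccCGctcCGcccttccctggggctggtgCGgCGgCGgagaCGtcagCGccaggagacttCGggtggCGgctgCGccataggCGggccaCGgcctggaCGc
The windows hold 29, 37, 35 and 27 CG dinucleotides in that order, and their observed-over-expected CG ratios are 0.84, 0.97, 0.94 and 0.88. Over all 35116 RefSeq promoter windows the median ratio was 0.58, with quartiles of 0.23 and 0.86. Over the 50 windows of the members it was 0.75. Some other members that changed in KD2 had lower ratios: the 4 windows of GCNT2, which was also lower in KD2, have ratios of 0.21 to 0.34, and the windows of GALNT13, which was higher, have 0.61 and 0.07. The androgen receptor half-site AGAACA, searched on both strands, is in none of the 4, in 9 of 50 windows of the 31 members with an entry (18.0%), and in 14.8% of all windows. These counts describe letters only and say nothing about binding.

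Among the enzymes of core formation, the competing core 1 and core 3 synthases were both higher in KD2. The rise of the core 3 synthase in KD2 was used to choose this gene set, so the pairing is a description only. B3GNT6, the core 3 synthase, lies on chromosome 11 from 77034398 to 77041973 on the plus strand. It had 49, 74 and 62 reads in KDR, 397, 311 and 299 in KD2, 22, 18 and 14 in KD1, and 18, 8 and 8 in NT. KD2 lay above all other libraries and KDR above KD1 and NT. The means were 2.03 ± 0.52 CPM in KDR, 11.5 ± 0.87 in KD2, 0.63 ± 0.23 in KD1 and 0.38 ± 0.16 in NT, and the summed KD2 counts scaled by depth were 29.9-fold those of NT (counting interval 21.2 to 43.4). In KDR it stayed 2.39 ± 0.32 above NT on the log2 scale (SE). No test is given for this, since the same NT libraries were in the comparison that chose B3GNT6. Markers of intestinal or mucous epithelium, a tissue where B3GNT6 and GALNT12 are well known, were also not level between labels: 4 of them summed to 6.42 to 8.81 CPM in KDR, 9.35 to 10.8 in KD2, 6.30 to 7.28 in KD1 and 6.93 to 7.83 in NT. Among these, TFF3 rose by 0.94 ± 0.26 and MUC2 by 0.62 ± 0.24 in KD2 against NT (edgeR adjusted p = 0.00602 and 0.0473), while the log2 fold change of CDX2, a transcription factor of the gut, was -1.20 ± 0.34 (adjusted p = 0.00818). Their part in the changes of B3GNT6 and GALNT12 was not tested.

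C1GALT1, the core 1 synthase, had 8.63, 7.03 and 9.07 CPM in KDR, 19.9, 22.0 and 23.0 in KD2, 14.5, 13.2 and 14.3 in KD1, and 13.7, 8.79 and 11.4 in NT. KD2 was above all other libraries, and KDR overlapped only with the lowest NT library. It rose by 0.93 ± 0.14 in KD2 against NT on the log2 scale (edgeR adjusted p = 8.52e-06) and fell by 1.39 ± 0.14 in KDR against KD2 (adjusted p = 4.79e-08). The lower level of KDR against NT, -0.46 ± 0.14 (adjusted p = 0.0183), was lost without NT replicate 1 (-0.29, adjusted p = 0.145) or KDR replicate 2 (-0.36, adjusted p = 0.113). With all libraries of KDR and NT kept, it was also lost when only these labels were fitted (edgeR adjusted p = 0.0664). C1GALT1C1, the chaperone that C1GALT1 needs for folding, passed in no comparison and averaged 25.6 ± 2.33 CPM in KDR, 24.1 ± 0.54 in KD2, 26.3 ± 2.04 in KD1 and 27.4 ± 0.72 in NT.

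The branching enzymes were lower in both KDR and KD2. GCNT1, which makes core 2, had 188, 190.1 and 191 CPM in KDR, 159.9, 154 and 167 in KD2, 224, 239.9 and 236 in KD1, and 240.0, 217 and 233 in NT. KD2 was lowest, KDR next, and neither overlapped KD1 or NT. The log2 fold change was -0.52 ± 0.06 in KD2 against NT (edgeR adjusted p = 8.97e-08), 0.24 ± 0.06 in KDR against KD2 (adjusted p = 0.00152) and -0.28 ± 0.06 in KDR against NT (adjusted p = 0.000513). GCNT2, which makes branched I antigen on poly-N-acetyllactosamine, had 6.38, 6.51 and 7.17 CPM in KDR, 3.24, 2.47 and 3.97 in KD2, 11.3, 12.5 and 11.4 in KD1, and 12.3, 13.9 and 13.2 in NT. It showed the same order, without overlap of KDR with either KD2 or NT. The log2 fold change of GCNT2 was -2.03 ± 0.15 in KD2 against NT (adjusted p = 3.29e-10), 1.06 ± 0.16 in KDR against KD2 (adjusted p = 1.29e-05) and -0.97 ± 0.14 in KDR against NT (adjusted p = 1.51e-05). GCNT3, a core 2 and core 4 enzyme of mucous epithelia, was too low to test, with at most 27 reads in a library.

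Of the extension enzymes, B3GNT3, which extends core 1, had 1.84, 1.48 and 1.32 CPM in KDR, 3.58, 2.78 and 4.22 in KD2, 4.42, 2.54 and 2.47 in KD1, and 3.39, 6.05 and 2.48 in NT. KDR lay below every other library. It fell in KDR by 1.18 ± 0.31 against KD2 (edgeR adjusted p = 0.00506) and by 1.35 ± 0.31 against NT (adjusted p = 0.00183) on the log2 scale. B3GNT2, the main poly-N-acetyllactosamine synthase, averaged 29.2 ± 1.36 CPM in KDR, 26.0 ± 2.20 in KD2, 37.5 ± 2.41 in KD1 and 35.3 ± 4.61 in NT, and fell by 0.44 ± 0.10 in KD2 against NT (adjusted p = 0.000946). Its smaller KDR difference from NT, -0.27 ± 0.10 (adjusted p = 0.0375), was lost without NT replicate 3 (-0.17, adjusted p = 0.212) or any KDR library (adjusted p = 0.0595 to 0.142). It was also lost when only the KDR and NT libraries were fitted (edgeR adjusted p = 0.0783). B4GALT1, the main galactosyltransferase of N-acetyllactosamine, averaged 182 ± 8.24 CPM in KDR, 184 ± 2.47 in KD2, 233 ± 3.39 in KD1 and 227 ± 6.98 in NT. Its log2 fold change was -0.30 ± 0.05 in KD2 against NT (adjusted p = 7.83e-05) and -0.32 ± 0.05 in KDR against NT (adjusted p = 7.15e-05). B4GALT5, known for lactosylceramide synthesis, was higher in KD2, with 124 ± 2.86 CPM in KDR, 135 ± 7.55 in KD2, 112 ± 3.93 in KD1 and 112 ± 3.87 in NT, and 0.26 ± 0.06 above NT in KD2 (adjusted p = 0.00128).

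ST3GAL1, which adds α2,3-linked sialic acid to the galactose of core 1, was the most abundant member in every library. It had 598, 626 and 609.8 CPM in KDR, 1399, 1435 and 1437 in KD2, 1182, 1199 and 1169 in KD1, and 1198, 1308 and 1171 in NT. The 3 labels KDR, KD2 and NT did not overlap: KDR was lowest and KD2 highest. ST3GAL1 rose by 0.22 ± 0.05 in KD2 against NT (edgeR adjusted p = 0.000549), fell by 1.22 ± 0.05 in KDR against KD2 (adjusted p = 1.44e-15) and fell by 1.00 ± 0.05 in KDR against NT (adjusted p = 1.43e-13), all on the log2 scale. Set against its competitor, the ratio of ST3GAL1 to GCNT1 level per kilobase was 3.39 ± 0.06 in KDR, 9.37 ± 0.41 in KD2, 5.35 ± 0.19 in KD1 and 5.63 ± 0.62 in NT. The KDR libraries had the lowest ratios and the KD2 libraries the highest, with no overlap with KD1 or NT.

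Of the other sialyltransferases, ST6GALNAC1 was higher and ST3GAL4 lower in both KD2 and KDR than in NT. ST6GALNAC1, which makes the sialyl-Tn antigen, had 95.01, 98.97 and 98.09 CPM in KDR, 98.5, 103 and 99.5 in KD2, 78.8, 75.5 and 75.1 in KD1, and 80.7, 83.4 and 80.4 in NT. KDR and KD2 overlapped and both lay above KD1 and NT, with log2 fold changes of 0.30 ± 0.06 in KD2 against NT (edgeR adjusted p = 0.000285) and 0.26 ± 0.06 in KDR against NT (adjusted p = 0.00191). ST3GAL4, which sialylates N-acetyllactosamine ends, averaged 79.1 ± 5.53 CPM in KDR, 90.5 ± 3.89 in KD2, 112 ± 1.35 in KD1 and 119 ± 16.2 in NT. It fell by 0.40 ± 0.08 in KD2 (adjusted p = 0.000345) and by 0.59 ± 0.08 in KDR (adjusted p = 5.09e-06), each against NT. ST6GALNAC4, which makes disialylated core 1, was 4.43 ± 0.47 CPM in KDR, 5.61 ± 0.54 in KD2, 6.03 ± 0.83 in KD1 and 6.79 ± 1.52 in NT. Its difference of KDR from NT, -0.61 ± 0.18 (adjusted p = 0.0119), was lost without NT replicate 2 (-0.42, adjusted p = 0.0833) or KDR replicate 3 (-0.53, adjusted p = 0.0615). ST6GALNAC2, which shares 59.1% of its exon length with other genes, passed in no comparison, although its log2 fold change was -1.20 ± 0.50 in KD2 against NT (adjusted p = 0.0663) and -1.20 ± 0.49 in KDR against NT (adjusted p = 0.0769), at means of 0.66 CPM in KDR, 0.67 in KD2, 1.41 in KD1 and 1.52 in NT. ST6GAL1, an enzyme of N-glycans, was too low to test, with at most 4 reads in a library.

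**Figure D4:**
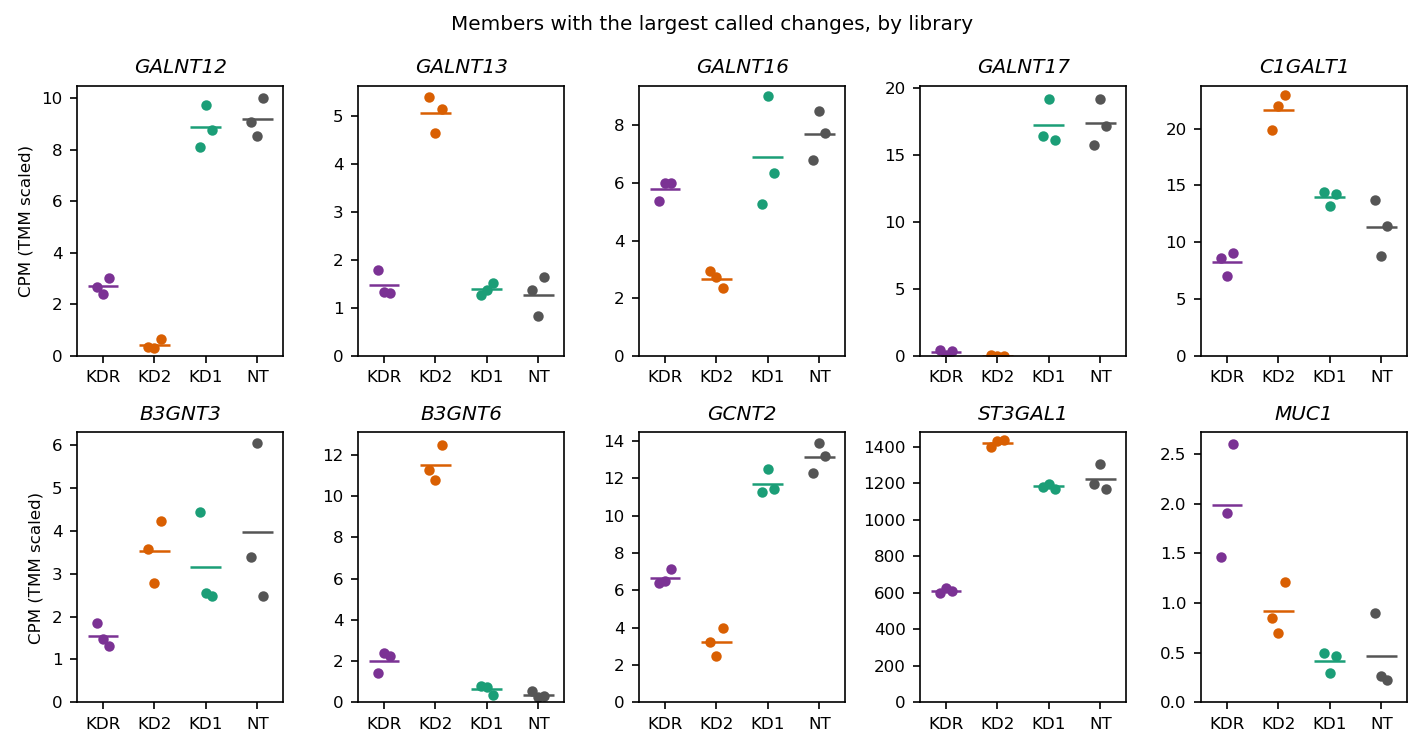
TMM-scaled CPM of 10 members in each library, 1 panel per gene with a linear axis from 0; points are libraries and bars the mean of 3. The KD2 points of GALNT12, GALNT16, GALNT17 and GCNT2 lie below all other labels, and those of GALNT13, C1GALT1, B3GNT6 and ST3GAL1 above them.

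The fucosyltransferases FUT3 and FUT8 were lowest in KDR. FUT3, a Lewis enzyme with the near-identical copies FUT5 and FUT6 that make its count uncertain, had 10.8, 13.3 and 13.4 CPM in KDR, 19.3, 18.4 and 22.5 in KD2, 19.4, 18.2 and 19.5 in KD1, and 18.1, 26.5 and 23.4 in NT. KDR lay below all others, with log2 fold changes of -0.68 ± 0.13 against KD2 and -0.86 ± 0.13 against NT (edgeR adjusted p = 0.000223 and 1.83e-05). FUT8, the core fucosyltransferase of N-glycans, averaged 20.2 ± 0.90 CPM in KDR, 22.7 ± 0.46 in KD2, 32.1 ± 3.32 in KD1 and 31.7 ± 1.85 in NT. Its log2 fold change was -0.48 ± 0.09 in KD2 against NT (adjusted p = 0.000191) and -0.65 ± 0.09 in KDR against NT (adjusted p = 9.37e-06). FUT2, the secretor enzyme, stayed between 0.59 and 1.22 CPM in all libraries and passed in no comparison.

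The mucins of the set were scarce. MUC1, the transmembrane mucin of glandular epithelia, had 50, 59 and 71 reads in KDR, 30, 20 and 29 in KD2, 14, 7 and 18 in KD1, and 29, 8 and 6 in NT. KDR lay above all other libraries, and NT replicate 1 reached the KD2 range. The log2 fold change was 2.06 ± 0.47 in KDR against NT (edgeR adjusted p = 0.00192; 2.98 and 0.000136 without NT replicate 1) and 1.12 ± 0.44 in KDR against KD2, which did not pass (adjusted p = 0.0587); in KD2 against NT it was 0.94 ± 0.48 (adjusted p = 0.141). MUC20, of whose exon length 27.1% overlaps MUC20-OT1, averaged 9.38 ± 1.26 CPM in KDR, 5.84 ± 0.31 in KD2, 6.01 ± 0.71 in KD1 and 7.28 ± 0.60 in NT, and was 0.69 ± 0.15 higher in KDR than in KD2 (adjusted p = 0.000858). MUC13 had 0 reads in all 12 libraries.

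A4GALT, which makes the glycolipid globotriaosylceramide, averaged 2.90 ± 0.48 CPM in KDR, 4.21 ± 0.52 in KD2, 4.70 ± 0.24 in KD1 and 4.76 ± 1.02 in NT. Its lower level in KDR against NT, -0.72 ± 0.20 on the log2 scale (edgeR adjusted p = 0.00849), was lost without NT replicate 1 (-0.53, adjusted p = 0.0687). The KDR difference from KD2, -0.54 ± 0.20 (adjusted p = 0.0404), was lost without KD2 replicate 1, KD2 replicate 2, KDR replicate 1 or KDR replicate 3 (adjusted p = 0.0656 to 0.168). It was also lost with all libraries when no filter on low counts was set (edgeR adjusted p = 0.0848).

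More of the genes that make the sugar donors of these enzymes fell than rose in KD2 and in KDR, each against NT. Of 24 such genes, all tested, 2 rose and 10 fell in KD2 against NT, 4 rose and 6 fell in KDR against KD2, and 1 rose and 12 fell in KDR against NT; the median log2 fold changes were -0.05, -0.05 and -0.20 in that order. Over all tested genes 17.8% rose and 18.2% fell in KD2 against NT, 15.3% rose and 17.1% fell in KDR against KD2, and 13.0% rose and 14.5% fell in KDR against NT. GFPT1, the entry enzyme of the hexosamine pathway, had 376, 376 and 383 CPM in KDR, 389, 376 and 360.3 in KD2, 667, 684 and 681 in KD1, and 677, 551 and 709.5 in NT. KDR and KD2 overlapped and both lay below KD1 and NT, with log2 fold changes of -0.78 ± 0.07 in KD2 and -0.77 ± 0.07 in KDR against NT (edgeR adjusted p = 2.03e-09 and 5.66e-09). UAP1L1, a relative of the enzyme that makes UDP-N-acetylhexosamines, averaged 42.9 ± 0.59 CPM in KDR, 33.6 ± 2.25 in KD2, 73.3 ± 3.47 in KD1 and 81.4 ± 11.8 in NT. GALK2, a GalNAc kinase, and NANS, a sialic acid synthase, fell by 0.57 and 0.60 in KD2 against NT (adjusted p = 1.06e-06 and 2.14e-07). GNE, the first enzyme of sialic acid synthesis, had 4.53, 3.77 and 4.68 CPM in KDR, 11.4, 11.2 and 11.7 in KD2, 8.56, 10.1 and 9.89 in KD1, and 8.63, 7.80 and 9.30 in NT. It was highest in KD2 and lowest in KDR, with log2 fold changes of 0.42 ± 0.13 in KD2 against NT (adjusted p = 0.0156) and -0.99 ± 0.15 in KDR against NT (adjusted p = 9.86e-06).

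**Figure D5:**
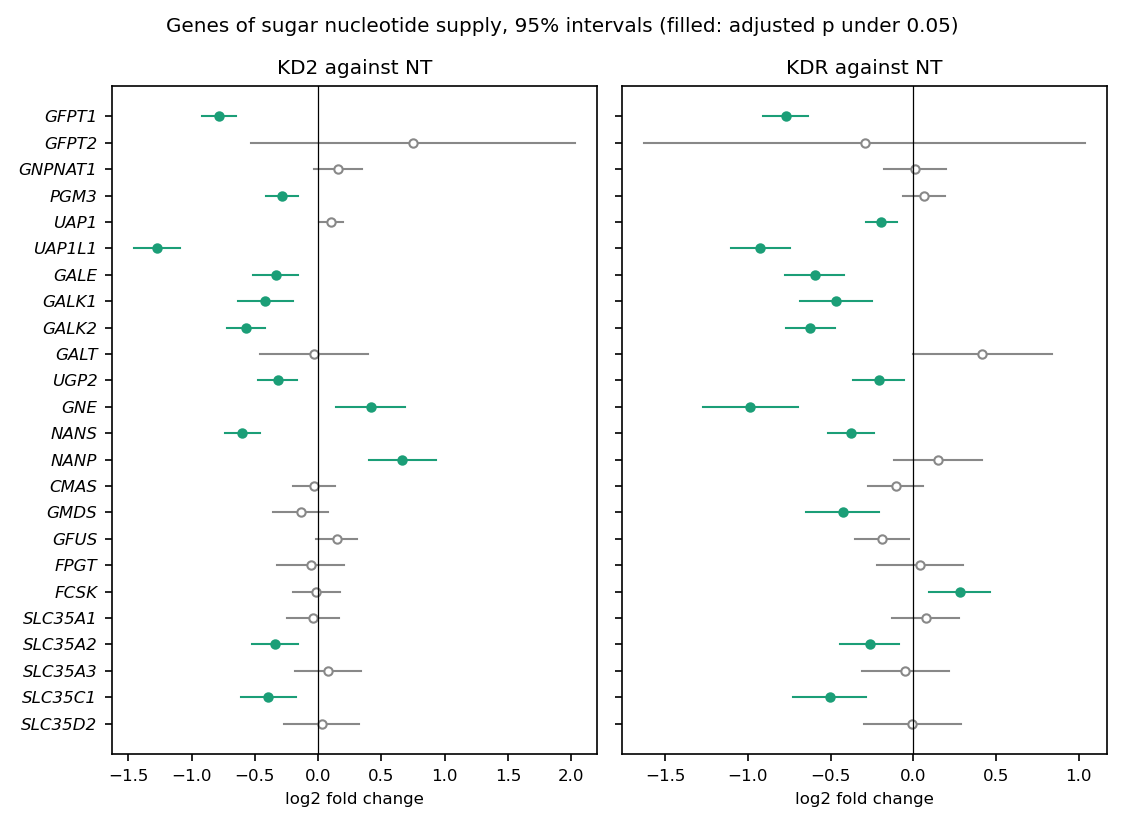
Log2 fold changes with 95% intervals of the 24 genes of sugar nucleotide supply, in KD2 against NT and in KDR against NT, on linear axes; filled points passed an adjusted p under 0.05. In KDR against NT 12 filled points lie left of 0 and FCSK lies right of it.

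Other lists of related function had shares of changed genes on both sides of the background of 35.9% in KD2 against NT and 27.5% in KDR against NT, and nothing particular to them is read from the counts. Of 45 further glycosyltransferases of the same families, 28 were tested, and 4 rose and 4 fell in KD2 against NT (28.6% changed), led by B4GALNT4, which makes the LacdiNAc group, at 124 ± 15.0 CPM in KD2 and 64.9 ± 5.75 in NT (edgeR adjusted p = 1.11e-08). In KDR against NT, 2 of the 28 rose and 6 fell (28.6%). Of 16 further mucins, 8 were tested, with 2 higher and 1 lower in KD2 against NT (37.5%) and 1 higher and 1 lower of the 8 in KDR against NT. Of 11 genes of other kinds of O-glycosylation, all tested, 2 rose and 3 fell in KD2 against NT (45.5%), among them XYLT2, a xylosyltransferase that starts proteoglycan chains, which was 40.1 ± 1.55 CPM in KDR, 19.8 ± 3.75 in KD2, 39.0 ± 1.64 in KD1 and 41.8 ± 5.77 in NT.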

How the data were processed

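Poly(A)-selected RNA of 12 libraries was sequenced as paired 150-base reads on a NovaSeq X Plus, per the labels' protocols. Per the submitters' processing notes, FastQC, cutadapt and HISAT2 were used, without versions given. The authors deposited raw counts per gene, made with featureCounts 1.6.4 on exons of Ensembl 111 (GRCh38), per the file headers; the command shown there sets no strand, pair or multimapping option, so each read end counted on its own and reads in overlapping or repeated genes were not counted.

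The members and gene lists were chosen with earlier results of these data known. Counts were analysed in R 4.3.3 with edgeR 4.0.16: genes kept by filterByExpr (19373), TMM scaling, all 12 libraries in 1 quasi-likelihood fit with the label as the only term, and Benjamini-Hochberg adjustment over all tested genes. A negative log2 fold change is lower in the label named first. CPM are scaled by TMM, and levels compared between genes are divided by exon length. Full values are given for GALNT17, B3GNT6 and every member called with a change of at least 2-fold and a mean of at least 1 CPM in some label. These are the 10 genes plotted by library. Other members are described more briefly, although some, such as GALNT10, are also given with values in every library. Alternatives were DESeq2 1.42.0, its size factors in edgeR, other filters on low counts, only the labels compared, replicate number as a block, and leaving out each library in turn. The scripts were tested on simulated counts. Promoter sequences are RefSeq's. Totals of 23786288 to 38240369 counts set the precision. Part of the cell type marker lists is not reported here and was left out of the summed levels.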

Additional observations from a re-analysis of the deposited data

Results flagged for a closer look

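KD2 and KD1 carry the same kind of label. Listed here are those of the 10 members plotted by library that differed directly between them, by edgeR's test over all genes. Members outside the 10 that also differed, such as GALNT10 and GCNT1, are not listed. A change of at least 2-fold in this same comparison was one way to be among the 10. The number listed is therefore not a result, and 35.5% of all tested genes differed. The log2 fold change was -4.37 for GALNT12 (adjusted p = 1.06e-12), 1.86 for GALNT13 (adjusted p = 4.59e-06), -1.35 for GALNT16 (adjusted p = 6.66e-06), 0.62 for C1GALT1 (adjusted p = 0.000755), -1.87 for GCNT2 (adjusted p = 1.45e-09) and 0.27 for ST3GAL1 (adjusted p = 5.47e-05). In each of these the 3 KD2 libraries lay outside the range of the 3 KD1 libraries. For GALNT17 it was -9.33 and for B3GNT6 4.23, given without a test because their behaviour in KD2 was used to choose them.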

How the results depend on the processing

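Under 18 alternatives, the 5 counts of changed members stayed within 1.5 times those reported. Leaving out each library in turn gave 16 to 20 members in KD2 against NT, 0 in KD1 against NT, 18 to 20 in KD2 against KD1, 16 to 22 in KDR against KD2 and 19 to 22 in KDR against NT. Without a filter on low counts, edgeR called 23 of all genes in KD1 against NT and 0 members. Over 76 called differences of single members, 1317 of 1364 values under the alternatives kept the direction and the call, 47 kept the direction only and 0 reversed. The 76 include GALNT17 and B3GNT6, also where KD2 is compared. In 12 of the 18 alternatives 1 library is left out, which may belong to neither label compared. The values share most of their data and are not independent. The 9 differences that lost a call somewhere are GALNT2 and GALNT14 in KD2 against NT, GALNT10, GALNT14 and A4GALT in KDR against KD2, and C1GALT1, B3GNT2, ST6GALNAC4 and A4GALT in KDR against NT; the cause was not tested. GALNT14 in KDR against KD2 lost its call under 14 alternatives, DESeq2 included (adjusted p = 0.0531).

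No pairing of libraries by the replicate numbers in the titles was seen: none of 18 same-number pairs had a correlation of deviations over 0.1 (range -0.023 to 0.039). Pairs of different number were not set beside them, so a weak pairing could have gone unseen. With the replicate number as a block the counts were 19, 0, 19, 17 and 22 in the order above. Depth limits what can be said of GALNT14, GALNT17 in KD2 and the 8 untested members.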

Other observations

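The nearest tested genes with a symbol on either side of GALNT17, B3GNT6 and GALNT12 differed less between KD2 and NT than these members did. Tested genes without a symbol and genes that overlap the member were passed over. Beside GALNT17, the log2 fold change of KD2 against NT was -0.67 ± 0.09 (SE) for AUTS2, which ends 339 kb before it (edgeR adjusted p = 1.36e-06), and -0.06 ± 0.15 for TYW1B, 845 kb after it (adjusted p = 0.809). Beside B3GNT6 it was -0.14 ± 0.07 for ACER3, 7.6 kb before it (adjusted p = 0.153), and -0.47 ± 0.11 for CAPN5, on its other side (adjusted p = 0.00145), while B3GNT6 itself was higher in KD2. Beside GALNT12 it was 0.06 ± 0.11 for TBC1D2, 552 kb before it (adjusted p = 0.728), and -0.17 ± 0.09 for TGFBR1, 254 kb after it (adjusted p = 0.144).

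OGT, the enzyme that adds single N-acetylglucosamine to nuclear and cytosolic proteins, averaged 435 ± 10.6 CPM in KDR, 334 ± 6.86 in KD2, 319 ± 17.7 in KD1 and 311 ± 14.0 in NT, and rose by 0.48 in KDR against NT on the log2 scale (edgeR adjusted p = 2.64e-07). B4GALNT4 stayed high in KDR, at 112 ± 3.12 CPM against 64.9 ± 5.75 in NT (adjusted p = 3.08e-07).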
